A study of Homo sapiens with 4 samples.

Results

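The leukocyte miRNAs miR-142, miR-150 and miR-223 were followed across exosomes and cells of a pair of human breast lines. The members were the 4 deposited names hsa-miR-142-3p, hsa-miR-142-5p, hsa-miR-150 and hsa-miR-223, taken by exact name and without star names, out of 1100 miRNA names in each library. Small RNA was sequenced from 4 groups with 1 library each: exosomes of MDA-MB-231, cells of MDA-MB-231, exosomes of MCF-10A and cells of MCF-10A. MDA-MB-231, a triple-negative breast cancer line, was kept in DMEM with 10% fetal bovine serum. MCF-10A, a line of non-transformed mammary epithelium, was kept in DMEM/F12 with 5% horse serum, insulin, EGF, cholera toxin and hydrocortisone. Exosomes, vesicles shed by cells, were purified from the cultures of both lines. How they were purified, and whether serum was in the medium during collection, is not given in the sources used here. Line, serum species and serum share go together in this design and cannot be told apart.

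A miRNA is a short RNA cut from a hairpin precursor, and it guides repression of messenger RNAs that pair with its seed. Either arm of the hairpin can yield a mature miRNA, named 5p or 3p, and in the older naming used by the files a star marks the minor arm. miR-142 is made in nearly all blood cell lineages, miR-150 marks mature lymphocytes, where it represses MYB, and miR-223 marks neutrophils and other myeloid cells. None of them is known as a marker of breast epithelium. Their mature sequences are conserved among mammals, and serum carries miRNAs of blood cells. The files give human names only, so a name does not record the species or the cell a read came from.

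The mature sequences are shown because these names share no seed and because the arms of miR-142 are compared below. They are from RefSeq on GRCh38.p14, read 5′ to 3′, and capitals mark the seed (bases 2 to 8). The table used matched 3 of the 4 members, miR-223 being its miR-223-3p and miR-223* its miR-223-5p.
hsa-miR-142-3p: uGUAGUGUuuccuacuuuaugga
hsa-miR-142-5p: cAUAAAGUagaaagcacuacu
hsa-miR-223: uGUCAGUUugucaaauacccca
hsa-miR-223*: cGUGUAUUugacaagcugaguu
Among 2545 mature sequences searched, no other name had the seed of miR-142-3p, of miR-223 or of miR-223*. The seed of miR-142-5p was shared by 1 other name, miR-5590-3p.

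The hairpins of miR-142 and miR-223 show which reads the arm comparisons rest on. Capitals mark the 5p arm first and the 3p arm after it.
MIR142: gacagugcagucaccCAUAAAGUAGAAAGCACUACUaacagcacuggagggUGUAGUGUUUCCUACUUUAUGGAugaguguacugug
MIR223: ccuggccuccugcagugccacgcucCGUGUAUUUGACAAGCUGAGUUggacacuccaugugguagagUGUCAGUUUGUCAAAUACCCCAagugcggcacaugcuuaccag
In the MIR142 hairpin of 87 bases, the 5p arm spans bases 16 to 36 and the 3p arm bases 52 to 74. In the MIR223 hairpin of 110 bases, the arms span bases 26 to 47 and 68 to 89. Coordinates are from GENCODE release 29 (GRCh38), matched by gene name, since the files hold none. MIR142 lies at chr17:58331232-58331318 on the minus strand, in an intron of the opposite-strand transcript TSPOAP1-AS1 and in an exon of a non-coding gene on its own strand, where RefSeq has MIR142HG. MIR150 lies at chr19:49500785-49500868 on the minus strand, inside no other annotated gene. MIR223 lies at chrX:66018870-66018979 on the plus strand, in an exon of a non-coding gene of the same strand, where RefSeq has MIR223HG.

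Each level is the deposited value, log2 of reads per 10000000 plus 1, so 0 is 0 reads. MDA-MB-231 had 1532908 miRNA reads in its exosome library and 7346076 in its cell library, while MCF-10A had 1254641 in its exosome library and 10937895 in the one labelled as its cells. Whole reads were recovered from the low values, and a count of 0 allows up to 3 reads, or 19.6, 4.08, 23.9 and 2.74 reads per 10000000 in that order. With 1 library per group no difference had a replicate check, no test was possible and no p-value is given. Folds carry an exact conditional binomial 95% interval and shares a Wilson 95% interval, both for counting error only, since PCR reads without molecular identifiers are not independent molecules. The library with the MCF-10A cell label (the cell-labelled MCF-10A library) stood apart and went against its label: the 34 names on 6 lists of other tissues (erythroid, liver, endothelial, stromal, muscle and neural) took 48.5% of its reads. Stromal names took 31.9%, led by miR-143 with 2964453 reads, and muscle names 12.4%, led by miR-1 with 1255068 reads. Erythroid and endothelial names took 1.45% and 2.20%, and liver and neural names 0.200% and 0.289%. Among the stromal names miR-199a-3p and miR-199b-3p, which share their values, were counted separately. The same 34 names took 2.20% and 0.0549% of the reads in exosomes and cells of MDA-MB-231 and 0.0663% in MCF-10A exosomes. The 7 mammary epithelial names, among them miR-200c and miR-205, took 0.0232% and 0.0459% of the reads in exosomes and cells of MDA-MB-231, 4.41% in MCF-10A exosomes and 1.01% in the cell-labelled MCF-10A library. Whether that library was made from MCF-10A cells is not certain, so each direction below that rests on it is given for the library and not for the line.

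All 4 members were detected in both exosome libraries and in the cell-labelled MCF-10A library, whereas MDA-MB-231 cells had reads of the miR-142 arms only. Together they took 0.311% of the reads in exosomes (0.302 to 0.320) and 0.0117% in cells (0.0109 to 0.0125) of MDA-MB-231. In MCF-10A their share was 0.0150% in exosomes (0.0130 to 0.0173) and 0.403% in the library labelled as cells (0.400 to 0.407). These are bulk libraries, in which fewer cells or vesicles of a kind and less RNA in each cannot be told apart. The library order was the same for the members' sum as for miR-142-5p, miR-150 and miR-223: the cell-labelled MCF-10A library was highest, followed by the exosomes of MDA-MB-231, those of MCF-10A and last MDA-MB-231 cells.

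miR-142-3p, the more abundant arm, stood at 14.65 in exosomes (3941 reads) and 10.15 in cells (834 reads) of MDA-MB-231, and at 10.10 in exosomes (138 reads) and 14.83 in the cell-labelled library (31856 reads) of MCF-10A. It ranked 40 of 508 detected names in the exosomes and 119 of 566 in the cells of MDA-MB-231, 117 of 436 in MCF-10A exosomes and 48 of 794 in the cell-labelled MCF-10A library. It stood among the more abundant names in all 4 libraries. Cells of MDA-MB-231 and exosomes of MCF-10A did not differ beyond counting error (ratio 1.03, 0.861 to 1.25). MDA-MB-231 exosomes lay at 0.883 of the cell-labelled MCF-10A library (0.854 to 0.912), which is past counting error, and the rounding of the deposited values leaves reads this numerous uncertain by 0.347%.

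miR-142-5p, from the other arm of the same hairpin, stood at 11.45 in exosomes (429 reads) and 5.13 in cells (25 reads) of MDA-MB-231, and at 7.01 in exosomes (16 reads) and 11.98 in the cell-labelled library (4417 reads) of MCF-10A. Unlike the 3p arm, it was lower in MDA-MB-231 cells than in MCF-10A exosomes, at 0.267 of their level (0.137 to 0.535).

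miR-150, the lymphocyte miRNA, stood at 10.32 in exosomes (196 reads) and 0 in cells (0 reads) of MDA-MB-231, and at 7.33 in exosomes (20 reads) and 11.75 in the cell-labelled library (3766 reads) of MCF-10A. Its star arm was seen in the last of these alone, with 33 reads, and had 0 reads in the other 3 libraries. There it made up 0.869% of the reads of both arms (0.619 to 1.22). The 0 reads beside 196 in MDA-MB-231 exosomes allow a share of up to 1.92% (Wilson), so a share of 0.869% is within what this depth allows there.

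miR-223, the myeloid miRNA, stood at 10.36 in exosomes (201 reads) and 0 in cells (0 reads) of MDA-MB-231, and at 6.81 in exosomes (14 reads) and 11.87 in the cell-labelled library (4093 reads) of MCF-10A. miR-150 and miR-223 thus tracked each other closely and were both at 0 in MDA-MB-231 cells, in the library with the second greatest depth. The star arm of miR-223 stood at 7.24 in MDA-MB-231 exosomes (23 reads) and 7.44 in the cell-labelled MCF-10A library (189), with 0 reads in the other 2 libraries.

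**Figure D1:**
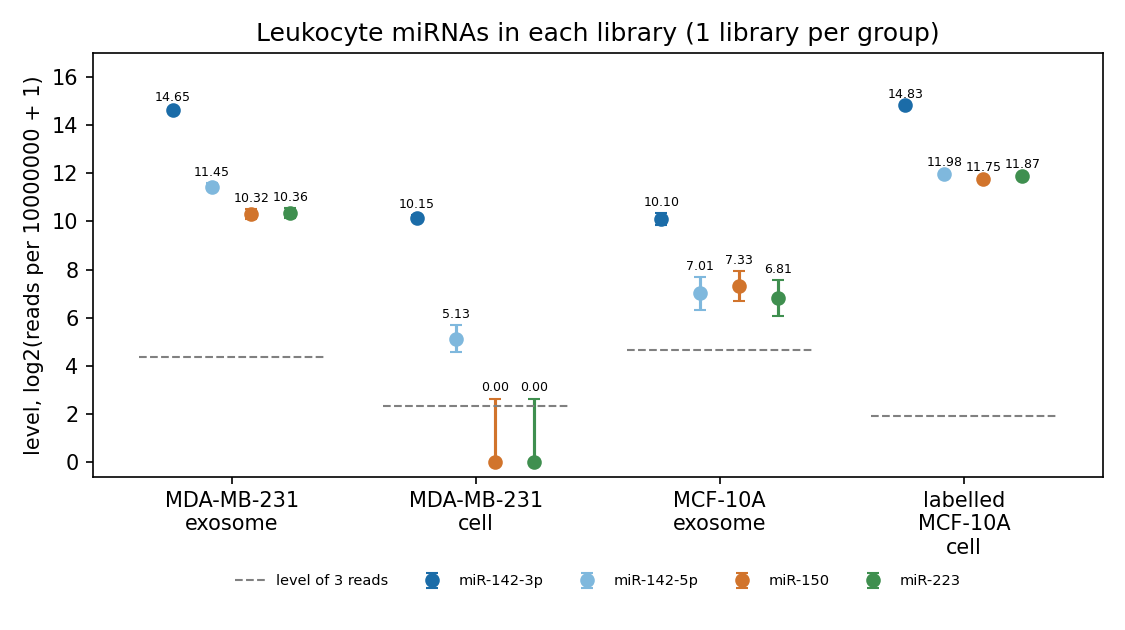
Deposited level (log2 of reads per 10000000 plus 1) of the 4 members in each library, with 1 library per group and values printed above the points. Bars are Wilson 95% intervals for counting error and dashed lines mark the level of 3 reads; miR-150 and miR-223 sit at 0.00 in MDA-MB-231 cells, where miR-142-3p stands at 10.15.

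The make-up of the members' reads does not depend on how libraries are scaled, and it differed between the libraries. In MDA-MB-231 exosomes miR-142-3p held 82.7% of the 4767 member reads (81.6 to 83.7), miR-142-5p 429 reads (8.22% to 9.85%), miR-150 4.11% (3.58 to 4.71) and miR-223 4.22% (3.68 to 4.82). In MDA-MB-231 cells miR-142-3p held 97.1% of 859 reads (95.7 to 98.0) and miR-142-5p the remaining 2.91% (1.98 to 4.26). There miR-150 and miR-223 were each held to at most 0.445% by the Wilson interval, below the 4.11% and 4.22% of the exosomes of that line.

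MCF-10A exosomes had miR-142-3p at 73.4% of 188 reads (66.7 to 79.2), miR-142-5p at 8.51% (5.31 to 13.4), miR-150 at 10.6% (6.99 to 15.9) and miR-223 at 7.45% (4.49 to 12.1). In the cell-labelled MCF-10A library they held 72.2% (71.8 to 72.6), 10.0% (9.73 to 10.3), 8.53% (8.28 to 8.80) and 9.27% (9.01 to 9.55) of 44132 reads, in the same order of names. For all 4 members the interval of MCF-10A exosomes contained the share in the cell-labelled MCF-10A library, although the members' summed level was far apart in them. With 188 reads the exosome shares are known only to these wide intervals. Per 100 reads of miR-142-3p, miR-150 had 4.97 in MDA-MB-231 exosomes, 14.5 in those of MCF-10A and 11.8 in the cell-labelled MCF-10A library. It had 0 in MDA-MB-231 cells, where 3 reads would be 0.360.

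The arms of miR-142 were also split differently in MDA-MB-231 cells. The 5p arm made up 9.82% of the reads of both arms in exosomes of MDA-MB-231 (8.97 to 10.7), against 2.91% in its cells (1.98 to 4.26). It made up 10.4% in MCF-10A exosomes (6.50 to 16.2), against 12.2% in the cell-labelled MCF-10A library (11.8 to 12.5). The interval of MDA-MB-231 cells overlapped none of the other 3. For miR-223 the star arm made up 10.3% of the reads of both arms in MDA-MB-231 exosomes (6.94 to 14.9) and 4.41% in the cell-labelled MCF-10A library (3.84 to 5.07), and these intervals did not overlap. The 14 reads of miR-223 in MCF-10A exosomes allow a star share of up to 21.5%.

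**Figure D2:**
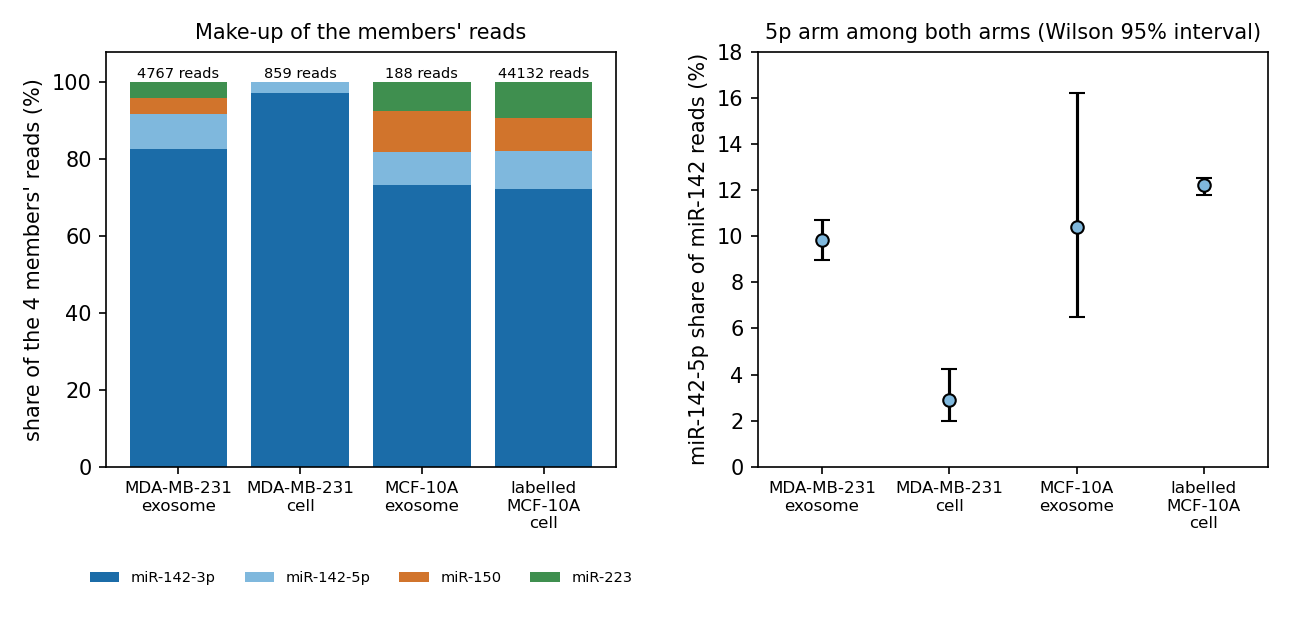
Left, share of each member in the summed reads of the 4 members in each library, in percent, with the number of reads above each bar. Right, share of miR-142-5p in the reads of both miR-142 arms, in percent, with Wilson 95% intervals; MDA-MB-231 cells sit lowest at 2.91%.

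The first comparison asked whether exosomes of the cancer line and of the non-transformed line differ in these miRNAs. All 4 members were higher by 4-fold or more in the exosomes of MDA-MB-231 than in those of MCF-10A, a size that 29.3% of the 505 names with at least 10 reads per 10000000 in either library also reached. The ratio was 23.4 for miR-142-3p (19.7 to 27.9) and 21.9 for miR-142-5p (13.4 to 38.7). It was smaller for miR-150, at 8.02 (5.05 to 13.4), whose interval lies below that of miR-142-3p, and 11.8 for miR-223 (6.84 to 21.9). The median log2 difference of the members was 3.99, beside 0.59 over all names. By recovered reads (at least 10 in either library, a 4-fold size with 0 set at 3 reads, and an interval that leaves out 1) all 4 passed as well, beside 24.0% of 342 names. Over all names 148 were higher and 96 lower, and 131 higher and 133 lower under upper-quartile scaling.

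The star arm of miR-223 had 23 reads in MDA-MB-231 exosomes against 0 in MCF-10A exosomes. This makes it 6.27-fold higher with 0 set at 3 reads, while the exact interval starts at 4.70. The list of 7 other leukocyte names includes miR-150* and miR-223*, the star arms of the members' own hairpins. Of the 7 names, 5 passed the minimum, with 3 higher (miR-223* among them), 1 lower and 1 within 4-fold. miR-155, a miRNA of activated lymphocytes and macrophages, stood at 10.78 in MDA-MB-231 exosomes against 5.83 in MCF-10A exosomes. miR-146a, which NF-κB induces in immune cells, stood at 18.63 against 7.01. miR-342-3p went the other way, at 9.31 against 11.44. The leukocyte names outside the members therefore did not move as 1 group between the exosomes.

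The second comparison set the same MDA-MB-231 exosome library against the cells of that line, so it shares that library with the first. All 4 members were at least 4-fold higher in the exosomes, which 22.2% of 499 names were (16.4% of 427 by recovered reads, again with all 4 members). The exosome to cell ratio was 22.6 for miR-142-3p (21.0 to 24.4) and 82.2 for miR-142-5p (54.9 to 129). Against 0 reads in the cells, miR-150 was 313-fold higher and miR-223 321-fold higher in the exosomes, with the cells set at 3 reads. The exact intervals start at 252 for miR-150 and 259 for miR-223. The star arm of miR-223 was 36.7-fold higher on the same basis (23 against 0 reads, exact interval from 27.5). The members' median log2 difference was 8.32, beside −0.09 over all names. It rests in part on the names at 0 reads, and was 7.32 with these set at 3 reads and 6.50 with a pseudocount of 10. Over all names 111 were higher and 67 lower, and 99 higher and 100 lower under upper-quartile scaling. The members thus fell into separate sizes here, the smallest for miR-142-3p and the greatest for the names at 0 in the cells. Among the other leukocyte names 2 of 5 were higher (miR-155 and the star arm miR-223*), 0 lower and 3 within 4-fold. miR-155 stood at 10.78 in the exosomes against 2.35 in the cells, miR-146a at 18.63 against 16.87, and miR-342-3p at 9.31 against 9.87.

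The third comparison set MDA-MB-231 cells against the cell-labelled MCF-10A library, with its names of other tissues and a label that these values go against. All 4 members were lower by 4-fold or more in MDA-MB-231 cells, but so were 54.3% of the 665 names (52.3% of 661 by recovered reads, with all 4 members). The difference was −4.68 log2 for miR-142-3p, −6.85 for miR-142-5p, −11.75 for miR-150 and −11.87 for miR-223, beside a median of −2.83 over all names. With 0 set at 3 reads, miR-150 was 843-fold lower (0 against 3766 reads, exact interval from 685). miR-223 was 916-fold lower on the same basis (0 against 4093 reads, exact interval from 745). miR-142-3p was 25.7-fold lower (23.9 to 27.5) and miR-142-5p 119-fold lower (80.3 to 184). Of all names 361 were lower and 115 higher. This split was 291 and 177 under upper-quartile scaling, 433 and 56 when scaled to 4 abundant names (miR-103, miR-191, miR-93 and miR-25), and 416 and 64 over the reads outside the lists of other tissues and the members. The difference of miR-142-3p was −5.65 log2 over those reads and −3.26 under upper-quartile scaling, within a range of −5.90 to −3.26 over the scalings and other settings tried. Of the other leukocyte names 5 of 7 were lower, the star arms miR-150* and miR-223* among them. miR-146a was the 1 that was higher, at 16.87 against 13.26.

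The last comparison set MCF-10A exosomes against the same library, which it shares with the third. All 4 members were at least 4-fold lower in MCF-10A exosomes, as were 57.2% of 661 names (46.7% of 629 by recovered reads, with all 4 members). The log2 differences lay close together, at −4.73 for miR-142-3p, −4.97 for miR-142-5p, −4.42 for miR-150 and −5.06 for miR-223, beside a median of −3.27 over all names. The members were 21.6-fold (miR-150, 14.0 to 35.4) to 33.5-fold (miR-223, 20.0 to 61.4) lower, with intervals that overlapped. Of all names 378 were lower and 102 higher, and 295 lower and 182 higher under upper-quartile scaling. Of the other leukocyte names 5 of 7 were lower by deposited levels (the star arms miR-150* and miR-223* among them), 0 higher and 2 within 4-fold. For miR-150* this is not shown beyond counting error. Its 0 reads against 33 made it 1.26-fold lower with 0 set at 3 reads, with a ratio interval of 0 to 1.03. miR-511 rested on similarly few reads, 0 against 27.

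**Figure D3:**
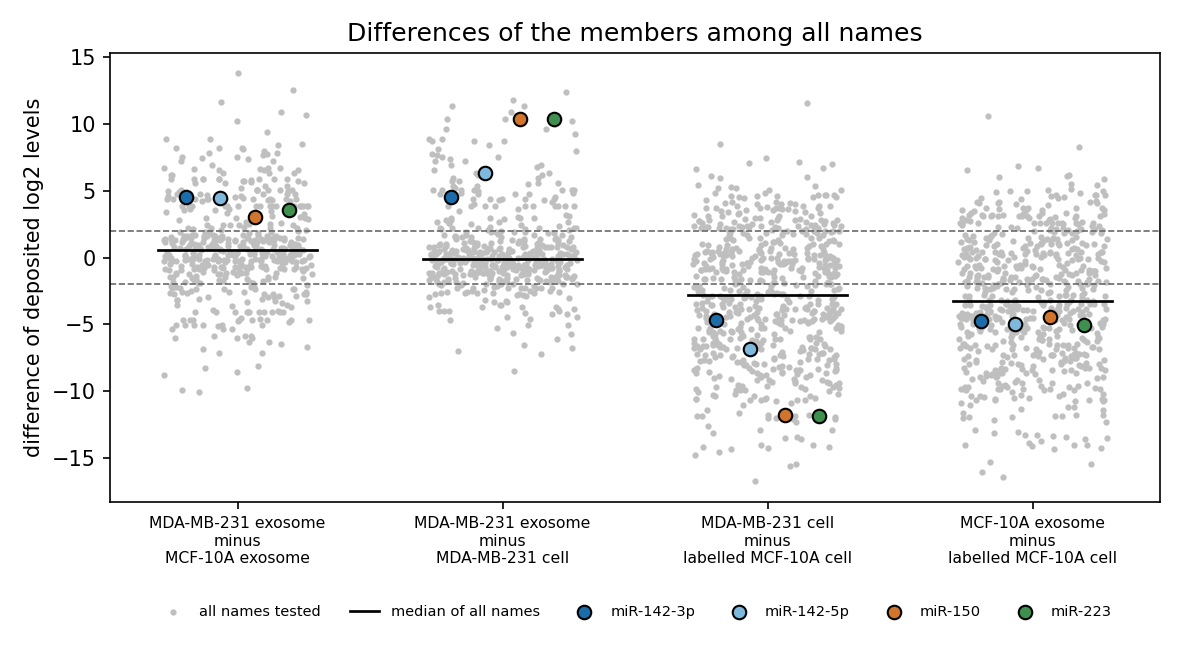
Difference of the deposited log2 levels in each of the 4 comparisons, with the members as coloured points, all names that passed the minimum in grey, their median as a black line and dashed lines at a 4-fold size. The members lie together in the first and the last comparison (2.99 to 4.55 and −5.06 to −4.42) and spread out in those with MDA-MB-231 cells (4.50 to 10.36 and −11.87 to −4.68).

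Names whose levels ran most like each member over the 4 libraries were found by the distance between centred log2 levels, over the 566 names that reached 50 reads per 10000000 somewhere. Nearest to miR-142-3p were both arms of the endothelial miR-126, miR-126* at a distance of 0.62 and miR-126 at 1.31, with miR-376b (1.24) between them. miR-126* stood at 12.51 in exosomes and 8.25 in cells of MDA-MB-231, and at 8.32 in exosomes and 13.54 in the cell-labelled library of MCF-10A. It too was at nearly the same level in cells of MDA-MB-231 and exosomes of MCF-10A. Nearest to miR-142-5p were miR-376b (1.35), miR-126 (1.50) and miR-379* (1.59). Nearest to miR-150 and to miR-223 were the same 3 names, miR-381 (2.02 and 1.82), miR-411 (2.08 and 1.84) and miR-376a* (2.41 and 2.17). miR-150 and miR-223 were nearer to each other, at 0.50, than to any of these, while miR-142-3p and miR-150 were 5.97 apart. Both miR-150 and miR-223 were at 0 reads in MDA-MB-231 cells, where miR-142-3p stood at 10.15. Their distances thus depend in part on the pseudocount, since 3 reads there would be a level of 2.35. miR-376b, miR-379*, miR-376a* and miR-411 are encoded on chromosome 14, while the chromosome of miR-381 was not found in the reference used. miR-376b and miR-379* rested on 6 and 4 reads in MDA-MB-231 exosomes and on 0 in its cells and in exosomes of MCF-10A. These distances describe 4 libraries and carry no test.

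Markers of other blood and tissue sources moved with the members, and their part in these results was not tested. All 5 erythroid and platelet names were above 0 in MDA-MB-231 exosomes, at 41261 reads per 10000000 in sum, with miR-451 at 14.72 and miR-486-5p at 12.14. Their sum was 193 in MDA-MB-231 cells, with miR-144 at 0, while MCF-10A had 239.6 in exosomes and 144902 in the cell-labelled library. They were higher by 4-fold or more in MDA-MB-231 exosomes for 5 of 5 names against MCF-10A exosomes, beside 29.3% of all names tested. Against MDA-MB-231 cells this held for 4 of 5 names, beside 22.2% of all names tested. The liver miRNA miR-122 stood at 14.79 in exosomes and 4.42 in cells of MDA-MB-231, and at 6.33 in exosomes and 14.26 in the cell-labelled library of MCF-10A. The other 3 liver names were at 0 in cells of MDA-MB-231 and exosomes of MCF-10A. In MDA-MB-231 exosomes miR-122* and miR-885-5p were also at 0 and miR-885-3p had 2 reads. The liver reads there were thus nearly all miR-122 (4342 of 4344). The endothelial names summed to 82694, 3005, 2946 and 220454 reads per 10000000, with the libraries in that order. The stromal names summed to 65351, 84.5, 199.7 and 3188079, counting miR-199a-3p and miR-199b-3p, which share their values, as separate names. All 9 stromal names that passed the minimum were higher by 4-fold or more in MDA-MB-231 exosomes in the comparisons with MCF-10A exosomes and with MDA-MB-231 cells. The shares over all names are those given above. Of the 9, miR-143* and miR-214* rested on 4 and 3 reads in MDA-MB-231 exosomes, with 0 in its cells and in MCF-10A exosomes. The muscle names, led by miR-1, took 0.0181% of the reads in MDA-MB-231 exosomes, 0.000109% in its cells, 0.000159% in exosomes of MCF-10A and 12.4% in the cell-labelled MCF-10A library. The neural names followed the members only in part. Like the members they were highest in the cell-labelled MCF-10A library, at 0.289%. They took 0.00724% in MDA-MB-231 exosomes, below the 0.0218% of its cells and the 0.0315% of MCF-10A exosomes. Those sums were mostly miR-9 in the cells (1238 of 1598 reads) and miR-137 in MCF-10A exosomes (381 of 395). Of the 3 that passed the minimum, 2 were higher and 1 lower in MDA-MB-231 exosomes than in MCF-10A exosomes. Against MDA-MB-231 cells 0 were higher, 1 lower and 2 within 4-fold. The members summed to 31095 reads per 10000000 in MDA-MB-231 exosomes, against 1169 in its cells and 1495 in MCF-10A exosomes.

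The proportion of member reads to these lists was not the same everywhere. Per erythroid and platelet read, MDA-MB-231 had 0.754 member reads in exosomes (0.726 to 0.783) and 6.05 in cells (5.06 to 7.28). MCF-10A had 6.27 in exosomes (4.25 to 9.55) and 0.278 in the cell-labelled library (0.276 to 0.281). Per endothelial read the proportion varied less, at 0.376 (0.364 to 0.389), 0.389 (0.359 to 0.421), 0.508 (0.424 to 0.607) and 0.183 (0.181 to 0.185) in the same order. Per stromal read it was 0.476 in MDA-MB-231 exosomes (0.460 to 0.493) and 0.0127 in the cell-labelled MCF-10A library (0.0125 to 0.0128), the libraries where the members were highest. The labels give the same medium with 10% fetal bovine serum for cells and exosomes of MDA-MB-231. Its cells had 0 reads of miR-150 and miR-223 and 834 of miR-142-3p. Whether serum was in the medium during exosome collection is not given, and serum as a source of these reads was not tested.

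**Figure D4:**
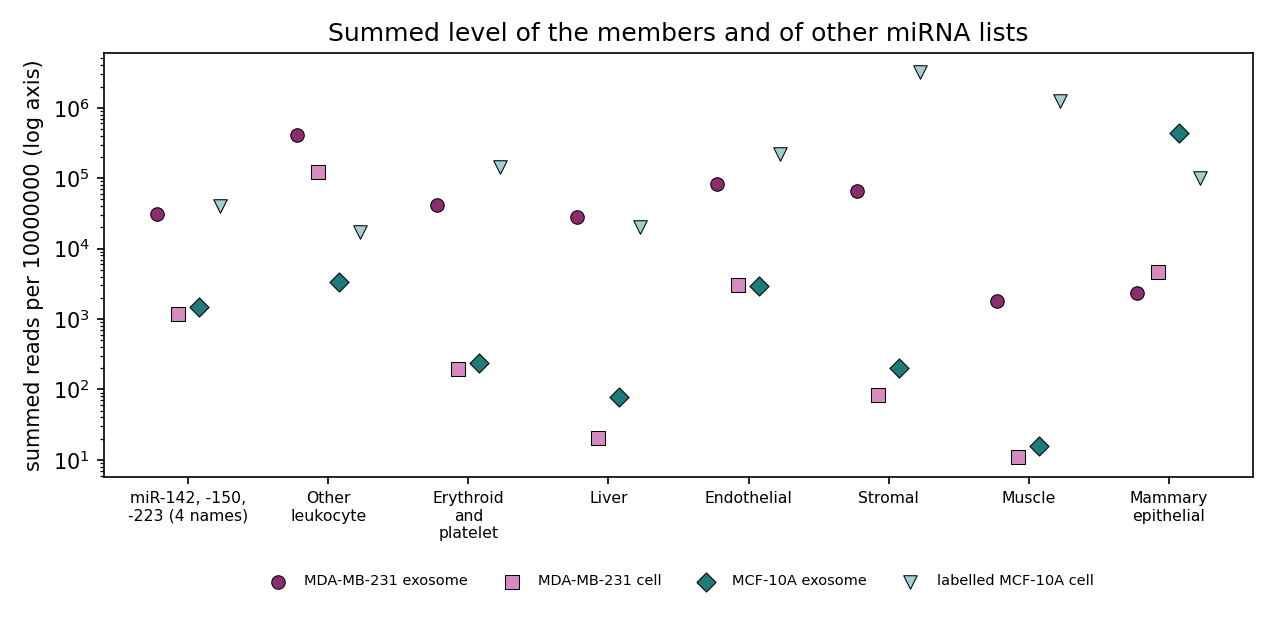
Summed level of the 4 members and of 7 other lists of miRNAs in each library, in reads per 10000000 on a log axis, with 1 point per library. The members' sum is 31095 in MDA-MB-231 exosomes and 40349 in the cell-labelled MCF-10A library, against 1169 in cells of MDA-MB-231 and 1495 in MCF-10A exosomes. The liver, endothelial and mammary epithelial sums did not keep this full order of libraries, and neither did the other leukocyte names. The neural sums, which are not plotted, did not keep it either. In the liver and endothelial lists only neighbouring libraries changed places. Other leukocyte names summed to 408349 and 120821 in exosomes and cells of MDA-MB-231. Their MCF-10A sums were 3391 in exosomes and 17435 in the cell-labelled library.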

How the data were processed

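Per the labels' protocols, libraries were made from 17 to 52 nt RNA and run on an Illumina Genome Analyzer IIx. The submitters' processing notes list Novoalign, edgeR and hg18 without a version or role, so how reads came to be assigned to names is not known here. The values deposited by the authors are on a log2 scale with 2 decimals. Neither base nor scale is stated; the values turn back to sums of about 10000000 (9992361 to 10004141) and low values are whole multiples of 1 step (6.52, 1.36, 7.97 and 0.914 reads per 10000000). A whole number of reads lay within the rounding for 100% of the low values that resolve single reads (40.1% to 65.7% of the names above 0). Differences of deposited log2 values (pseudocount 1) were the main measure; a name needed 10 reads per 10000000 in either library and counted from a 4-fold size. Alternatives were other scalings, pseudocounts, minimums and the recovered reads. The recovery and intervals were checked on simulated data (Python 3.11.15, SciPy 1.17.1). Named miRNAs were the members, their star arms, the 3 names nearest to each and up to 4 of each list. Members and lists were chosen with earlier results of these data known.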

Additional observations from a re-analysis of the deposited data

Results flagged for a closer look

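The difference between exosomes and cells had opposite signs in the lines for all 4 members: exosomes were above cells in MDA-MB-231, while MCF-10A exosomes were below the cell-labelled MCF-10A library. Over all names, 22.2% of 499 were at least 4-fold higher in the MDA-MB-231 comparison. In the MCF-10A comparison 57.2% of 661 were at least 4-fold lower. The share of names with both was not counted, so the reversal is not shown to be particular to the members. The log2 difference in MDA-MB-231 minus that in MCF-10A was 9.23 for miR-142-3p (4.50 and −4.73), 11.29 for miR-142-5p (6.32 and −4.97), 14.74 for miR-150 (10.32 and −4.42) and 15.42 for miR-223 (10.36 and −5.06). For miR-150 and miR-223 the MDA-MB-231 term is against 0 reads in the cells and depends on the pseudocount; with 0 set at 3 reads the values are 12.72 and 13.40. With 1 library per group this difference was not tested, and its second term rests on a library whose label is uncertain and that held 48.5% of its reads on lists of other tissues.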

How the results depend on the processing

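In each of the 4 comparisons all 4 members kept their direction and their 4-fold size under upper-quartile and TMM scaling, scaling to 4 abundant names, totals without miR-21 or without the lists of other tissues and the members, a pseudocount of 10 and recovered reads. The log2 difference of miR-150 between the exosomes came nearest to the 4-fold limit, at 2.26 (range 2.26 to 3.15), and in the last comparison it ranged from −5.38 to −2.78. Differences against names at 0 depend on the pseudocount: miR-223 between MDA-MB-231 exosomes and cells ranged from 7.05 to 10.55. Upper-quartile scaling took 0.73, 0.44, −1.42 and −1.64 off the log2 differences, in the order of the comparisons, except that names at 0 moved less (miR-150 to 10.10 in the second and −11.04 in the third). Counts over all names were smaller by recovered reads in each comparison. Higher names numbered 82 in place of 148 in the first and 70 in place of 111 in the second. By the same measure lower names numbered 346 in place of 361 in the third and 294 in place of 378 in the last. Lower names in the second comparison numbered 38 with a pseudocount of 10 and 103 with no minimum, in place of 67, and higher names in the last comparison 67 over the reads outside the lists of other tissues and the members, in place of 102. Shares of arms and members taken from the deposited levels differed by rounding only. The reads were recovered from those same levels, so this is not a separate check. No paired analysis was possible because each group has 1 library. Depth limits MCF-10A exosomes most, where 3 members rest on 14 to 20 reads.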

Other observations

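Another blood name was split unlike the members. Of the reads of both arms of miR-144, an erythroid miRNA, 1.83% were miR-144 and the rest miR-144* in MDA-MB-231 exosomes (Wilson 95% interval 1.26 to 2.64, 27 reads against 1452). In the cell-labelled MCF-10A library the share was 46.2% (44.6 to 47.8, 1756 reads against 2046). For miR-126, the endothelial name, the main arm's share was 92.9% and 89.9% in exosomes and cells of MDA-MB-231, 89.2% in MCF-10A exosomes and 94.6% in the cell-labelled MCF-10A library.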
